A study of Eriobotrya japonica with 9 samples.

Results

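The ZML genes of loquat (*Eriobotrya japonica*), *EjZML1* to *EjZML7*, are the members of the TIFY family whose proteins carry a GATA-type zinc finger beside the TIFY domain. They were taken by the names given to gene identifiers in the study. These 7 genes are among 26 named TIFY genes and 43996 genes in all. Leaves of loquat seedlings were sequenced on day 10 in 3 groups of 3 libraries, labelled as replicates. MTST seedlings were root-irrigated with 150 µmol/L melatonin and then stressed with 200 mmol/L NaCl, ST seedlings received water and then 200 mmol/L NaCl, and CK seedlings received water. All groups were total RNA of seedling leaves. No group received melatonin without NaCl, so MTST against ST measures melatonin only in leaves that were also given salt. In bulk leaf RNA, fewer cells of a type and less RNA per cell cannot be told apart.

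ZML proteins are plant transcription factors with a C2C2-GATA zinc finger that binds DNA, a TIFY motif and a CCT domain, the last 2 being regions for contact with other proteins. In *Arabidopsis thaliana*, the founding member ZIM lengthens hypocotyls and petioles when overexpressed, and the related ZML1 and ZML2 take part in the response to excess light that runs through the blue-light receptor cryptochrome. In maize, a ZML protein represses genes of lignin synthesis. The JAZ proteins of the same family are repressors of jasmonate responses.

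Each of the 7 genes was found in the table by its identifier, namely *EjZML1* (Ej00009776), *EjZML2* (Ej00064767), *EjZML3* (Ej00039431), *EjZML4* (Ej00030881), *EjZML5* (Ej00039351), *EjZML6* (Ej00083428) and *EjZML7* (Ej00015015). All 7 passed the filter on low values, which asked for 1 TPM or more in no fewer than 3 of the 9 libraries and was passed by 23641 genes. TPM, a transcript abundance scaled to the same total in every library, corrects for gene length, so levels of different genes were compared on this scale. The deposited annotation gave 98 Gene Ontology terms to all 7 genes, and the 6 genes other than *EjZML3* had 103 terms each, including the term for the nucleus that *EjZML3* lacked. No KEGG map was assigned to any of the 7. The coordinates and sequences of the genes were not analysed here.

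The libraries held between 13048770 and 14468499 counted reads, as recovered from the steps of the deposited values. The 10 most abundant genes took 9.34 to 10.3% of all TPM in MTST, 5.55 to 6.09% in ST and 11.2 to 11.6% in CK. As a check of the labelled tissue, the 97 genes on KEGG maps of photosynthesis took 10.2 to 10.8% of all TPM in MTST, 6.84 to 7.64% in ST and 12.0 to 13.6% in CK. These shares moved with the groups, and their part in the results below was not tested. Over all tested genes, the median log2 fold change came to 0.41 for ST against CK, -0.22 for MTST against ST and 0.19 for MTST against CK. Dividing TPM by median-of-ratios factors, which scale libraries by the typical gene, brought these medians to 0.014, -0.0019 and 0.0086. Changes between groups are therefore given under both scalings. The levels of single genes and their overlaps between groups are given in TPM alone. Overlaps over all genes were not counted. Shares and ratios within a library do not depend on the scaling, and differences of log2(TPM + 1) do so only through the pseudocount of 1.

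The 7 genes fell into 3 levels of abundance. *EjZML1*, *EjZML2*, *EjZML4* and *EjZML5* were the abundant members, *EjZML3* was lower, and *EjZML6* and *EjZML7* were scarce in every library. The summed TPM of the 7 genes was 234.6 ± 17.5 in MTST, 239.5 ± 8.14 in ST and 203.5 ± 15.5 in CK (SD, n = 3 each). The 3 groups differed in this sum by an exact permutation test over all 1680 assignments of the libraries (p = 0.0357). With median-of-ratios scaling, an alternative added after seeing the data, the sum was 235.8 ± 12.8 in MTST, 204.2 ± 2.86 in ST and 237.2 ± 17.1 in CK (SD, n = 3 each, exact permutation p = 0.0679). All ST libraries were then below all others, so the order of ST and CK in the sum depended on the scaling.

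*EjZML1* had 59.4, 63.1 and 67.1 TPM in the MTST libraries, 62.3, 60.1 and 61.9 TPM in ST and 45.6, 48.1 and 48.9 TPM in CK. Every MTST and ST library was above every CK library, while MTST and ST overlapped. *EjZML2*, named by the study as the segmental duplicate of *EjZML1*, had 39.4, 37.5 and 37.3 TPM in MTST, 47.7, 39.2 and 42.1 TPM in ST and 33.0, 30.7 and 24.9 TPM in CK. It too was lower in all CK libraries than in any other, and its levels in MTST and ST overlapped. These 2 genes had 572 to 897 and 316 to 535 reads per library.

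*EjZML3* had 20.8, 23.4 and 25.2 TPM in MTST, 27.4, 26.3 and 28.7 TPM in ST and 18.3, 15.4 and 19.3 TPM in CK. Its 3 groups did not overlap in TPM, with ST highest and CK lowest. On that scale 52.8% of all tested genes were called higher in ST than in CK. With median-of-ratios scaling, the log2 fold change of *EjZML3* in ST against CK was 0.19 in place of 0.62. *EjZML5*, which the study lists as its tandem duplicate, had 39.5, 42.4 and 49.3 TPM in MTST, 54.1, 48.9 and 47.6 TPM in ST and 42.5, 43.8 and 34.0 TPM in CK. All ST libraries lay above all CK libraries, and MTST overlapped both.

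*EjZML4*, described by the study as a paralog of *EjZML5*, had 55.0, 49.4 and 61.1 TPM in MTST, 46.3, 47.9 and 42.9 TPM in ST and 65.7, 68.3 and 52.3 TPM in CK. It was the single member that was lower in all ST libraries than in any MTST or CK library. Its MTST and CK libraries overlapped through CK replicate 3, which had the lowest *EjZML4* level of its group.

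*EjZML6* had 2.67, 2.94 and 5.01 TPM in MTST, 3.55, 4.78 and 3.68 TPM in ST and 2.83, 2.32 and 2.64 TPM in CK. ST lay above CK in all libraries, and MTST spanned both because of its replicate 3. *EjZML7* had 6.30, 7.17 and 9.74 TPM in MTST, 7.53, 7.57 and 8.04 TPM in ST and 4.83, 3.48 and 3.55 TPM in CK. All 6 libraries given salt were above the 3 CK libraries. *EjZML6* rested on 35 to 81 reads per library and *EjZML7* on 53 to 159, so their values carry more counting error than those of the other members.

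**Figure D1:**
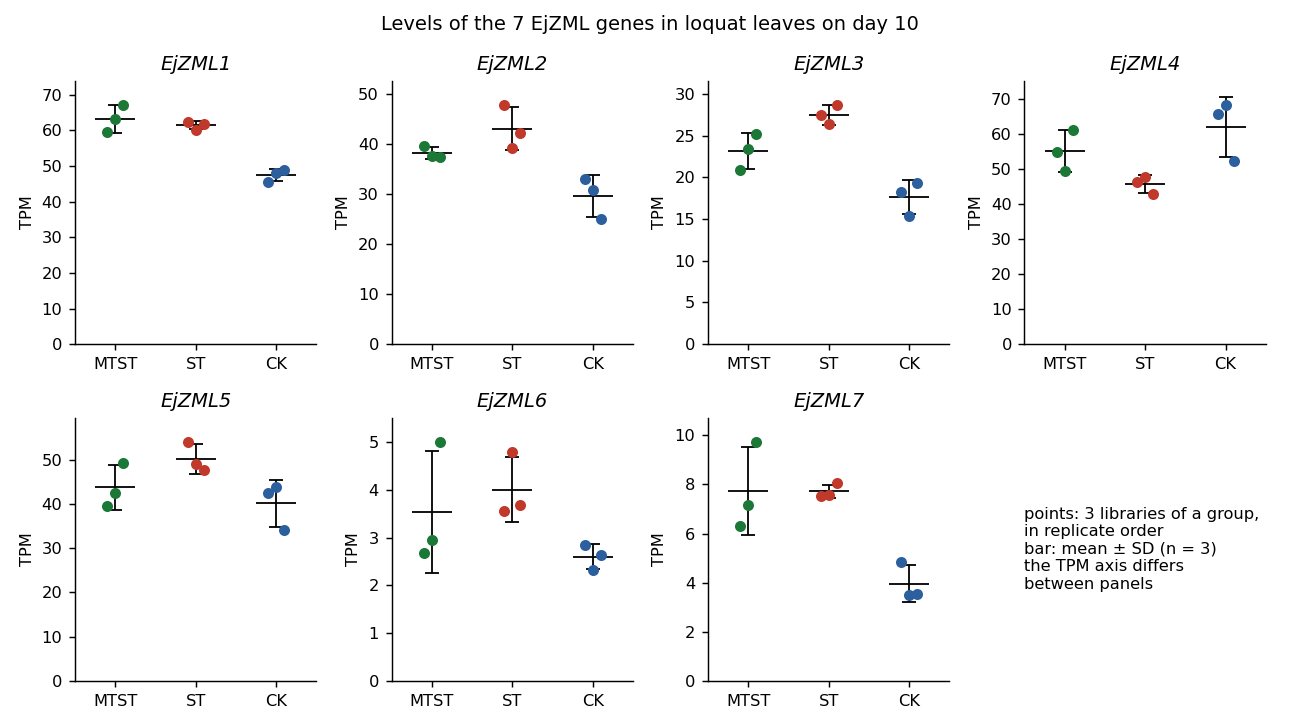
TPM of each *EjZML* gene (vertical axis, scale set per panel) in the 3 libraries of MTST, ST and CK (points in replicate order), with the mean and SD (bars, n = 3). *EjZML4* sits lowest in ST, at 42.9 to 47.9 TPM, while *EjZML7* sits at 6.30 to 9.74 TPM in both salt-treated groups and at 3.48 to 4.83 TPM in CK.

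The order of the levels was the same in all 3 CK libraries, *EjZML4* first, followed by *EjZML1*, *EjZML5*, *EjZML2*, *EjZML3*, *EjZML7* and *EjZML6*, and no neighbours in it overlapped in TPM. In all 3 MTST libraries *EjZML1* came first and *EjZML4* second, and the rest of the order was that of CK. The TPM ranges of *EjZML1* and *EjZML4* overlapped in MTST. In ST, *EjZML1* led and *EjZML5* was second in all 3 libraries. *EjZML2* was above *EjZML4* in ST replicate 1 and below it in the other 2, and *EjZML2*, *EjZML4* and *EjZML5* overlapped one another there. The ratio of *EjZML1* to *EjZML4* TPM was 1.08 to 1.28 in MTST, 1.26 to 1.44 in ST and 0.695 to 0.936 in CK, so the leading member was *EjZML1* in the 6 salt-treated libraries and *EjZML4* in the 3 water-treated ones.

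Salt alone was assessed by ST against CK. By limma on log2(TPM + 1), with Benjamini-Hochberg adjustment over the 23641 tested genes and a call at an adjusted p of at most 0.05, 5 *EjZML* genes rose, 1 fell and 1 did not pass. Among all tested genes, 52.8% were called higher and 10.6% lower in ST, so a rise under this scaling was common. *EjZML7* had the largest rise of the 7, 1.95-fold in mean TPM and 0.82 on the log2 scale (SE 0.17, adjusted p = 0.00181). *EjZML3* rose by 0.62 (SE 0.11, adjusted p = 0.000736) and *EjZML2* by 0.53 (SE 0.11, adjusted p = 0.00238). *EjZML1* rose by 0.36 (SE 0.075, adjusted p = 0.00187) and *EjZML5* by 0.32 (SE 0.12, adjusted p = 0.0335), both below the median of 0.41 over all genes. *EjZML4* fell by 0.43 (SE 0.12, adjusted p = 0.00884). *EjZML6* had 0.47 (SE 0.20, adjusted p = 0.0644). The median over the 7 genes was 0.47.

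With median-of-ratios scaling, *EjZML7* rose and *EjZML4* fell, and the other 5 did not pass the test. The background was then 22.8% of tested genes higher and 23.4% lower. *EjZML4* fell by 0.87 on the log2 scale (SE 0.11, adjusted p = 0.000133) and *EjZML7* rose by 0.44 (SE 0.16, adjusted p = 0.0451). *EjZML1* and *EjZML5* turned in sign, to -0.080 and -0.12, and *EjZML2*, *EjZML3* and *EjZML6* had 0.092, 0.19 and 0.13. The calls of *EjZML4* and *EjZML7* were thus made under both scalings. With TPM, the call of *EjZML5* was lost without ST replicate 1, ST replicate 2 or CK replicate 3 (adjusted p = 0.0934, 0.0523 and 0.114). It was also lost with FPKM as deposited (adjusted p = 0.0758) and with limma-voom (adjusted p = 0.0695). *EjZML6* passed without MTST replicate 3 (adjusted p = 0.0277) and when ST and CK were fitted without any MTST library (adjusted p = 0.0400).

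Melatonin before salt was assessed by MTST against ST, where 7.90% of tested genes were called higher and 29.8% lower. None of the 7 *EjZML* genes passed by limma on log2(TPM + 1), 2 had an unadjusted p under 0.05, and 1 was called by limma-voom on the recovered reads. These were *EjZML4*, at 0.26 on the log2 scale (SE 0.12, adjusted p = 0.0988), and *EjZML3*, with -0.24 (SE 0.11, adjusted p = 0.103). limma-voom called *EjZML4* higher in MTST (0.35, adjusted p = 0.0310), and so did the fit of TPM without CK replicate 3 (adjusted p = 0.0463). The other 5 genes had between -0.20 and 0.038. The 95% interval of *EjZML7* ran from -0.39 to 0.36, so a rise or fall within these bounds remained possible with 3 libraries a group.

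With median-of-ratios scaling, 15.1% of tested genes were called higher and 13.6% lower in MTST, and *EjZML4* and *EjZML1* were called higher. *EjZML4* rose by 0.50 (SE 0.11, adjusted p = 0.00816) and *EjZML1* by 0.27 (SE 0.073, adjusted p = 0.0199). The other 5 ranged from -0.013 to 0.19. *EjZML4*, which was low in ST, thus had positive values in MTST against ST under both scalings, and of these passed the test with median-of-ratios scaling alone.

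MTST against CK compares melatonin and salt together with water. In this comparison 29.7% of tested genes were called higher and 10.9% lower, and 4 *EjZML* genes rose, none fell and 3 did not pass. *EjZML7* rose by 0.81 (SE 0.17, adjusted p = 0.00380), 1.96-fold in mean TPM, close to its value in ST against CK, which shares the CK libraries. *EjZML1* rose by 0.40 (SE 0.075, adjusted p = 0.00204), *EjZML3* by 0.37 (SE 0.11, adjusted p = 0.0195) and *EjZML2* by 0.36 (SE 0.11, adjusted p = 0.0273). *EjZML4* had -0.16 (SE 0.12, adjusted p = 0.285), *EjZML5* 0.12 (SE 0.12, adjusted p = 0.425) and *EjZML6* 0.30 (SE 0.20, adjusted p = 0.258). The call of *EjZML2* was lost without MTST replicate 1, 2 or 3 or CK replicate 3 (adjusted p = 0.0829, 0.0593, 0.0607 and 0.0776), and that of *EjZML3* without MTST replicate 2 or 3 or CK replicate 2 (adjusted p = 0.0544, 0.0748 and 0.0734). Without MTST replicate 2 or MTST replicate 3, 2 genes remained called higher.

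With median-of-ratios scaling, under which 17.1% of tested genes were higher and 18.7% lower in MTST than in CK, *EjZML7* rose by 0.64 (SE 0.16, adjusted p = 0.0121) and *EjZML4* fell by 0.37 (SE 0.11, adjusted p = 0.0238). The calls of *EjZML1* (0.19, adjusted p = 0.0645), *EjZML2* (0.16, adjusted p = 0.283) and *EjZML3* (0.17, adjusted p = 0.232) were lost, and *EjZML5* turned in sign to -0.083. *EjZML7* was the single member called higher than in CK in both salt-treated groups under both scalings.

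**Figure D2:**
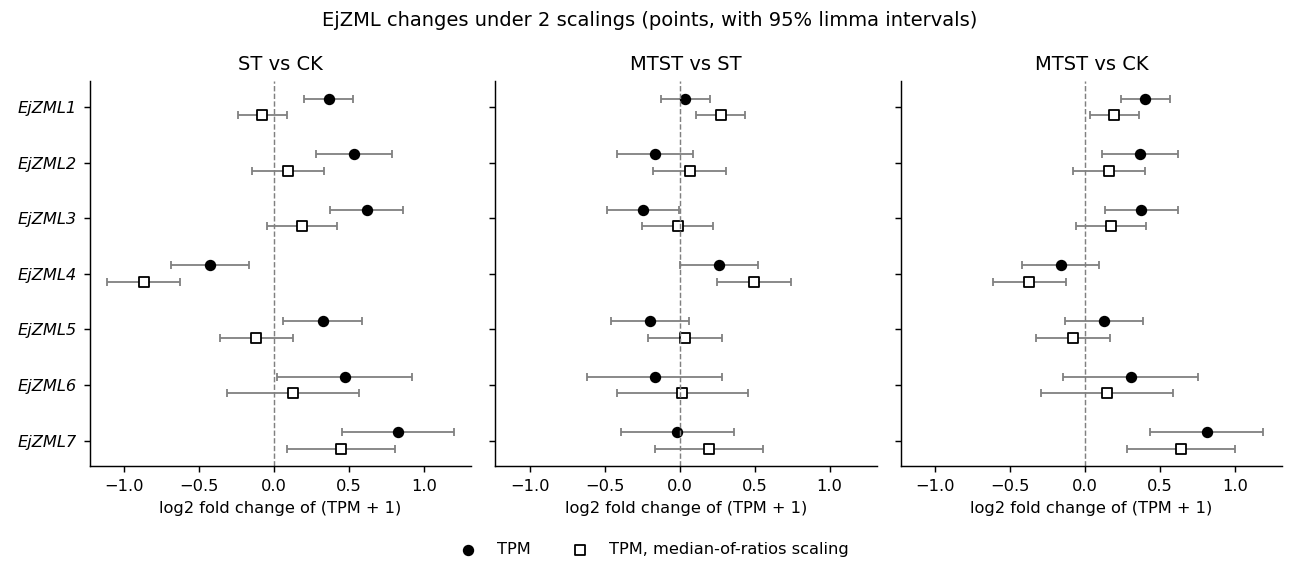
Log2 fold change of (TPM + 1) of the 7 *EjZML* genes (horizontal axis) in 3 comparisons, from TPM (filled circles) and from TPM with median-of-ratios scaling (open squares), with 95% limma intervals. In ST against CK the *EjZML4* points lie at -0.43 and -0.87 and the *EjZML7* points at 0.82 and 0.44, while those of *EjZML1* and *EjZML5* lie on both sides of 0.

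The makeup of the subfamily was measured as the share of each gene in the summed *EjZML* TPM of its library. The 7 shares were each tested at p of at most 0.05, without adjustment for the number of tests. The share of *EjZML4* was 24.6, 21.9 and 24.0% in MTST, 18.6, 20.4 and 18.3% in ST and 30.9, 32.2 and 28.2% in CK. The 3 groups did not overlap, and MTST lay between ST and CK. The exact permutation test over the 3 groups gave p = 0.00357, the smallest that 1680 assignments allow, and leaving out any 1 library kept it between 0.00357 and 0.00714.

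*EjZML7* took 2.82, 3.17 and 3.82% in MTST, 3.03, 3.22 and 3.42% in ST and 2.27, 1.64 and 1.91% in CK. Its salt-treated groups overlapped each other and lay above CK (exact permutation p = 0.0321). *EjZML3* took 9.34, 10.4 and 9.87% in MTST, 11.0, 11.2 and 12.2% in ST and 8.59, 7.24 and 10.4% in CK. Its ST libraries were above all others (exact permutation p = 0.0464), but without any of the 8 libraries other than CK replicate 3 the p was between 0.0714 and 0.132.

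The other 4 shares did not pass with all libraries. *EjZML1* averaged 27.0 ± 0.84% in MTST, 25.7 ± 0.66% in ST and 23.5 ± 2.56% in CK (SD, n = 3 each, exact permutation p = 0.0893). *EjZML2* averaged 16.3 ± 1.53% in MTST, 17.9 ± 1.24% in ST and 14.5 ± 1.05% in CK (SD, n = 3 each, exact permutation p = 0.0714). *EjZML5*, at 18.6 ± 0.83% in MTST, 20.9 ± 0.74% in ST and 19.7 ± 1.19% in CK (SD, n = 3 each), had an exact permutation p of 0.075. *EjZML6* stayed between 1.09 and 2.04% of the sum in the 9 libraries (exact permutation p = 0.35). These 7 tests are not independent, since the shares of a library add up to the whole. Without CK replicate 3, in which *EjZML1* took 26.4% of the sum, *EjZML1* and *EjZML5* also passed (p = 0.00357 and 0.0214, exact permutation test), making 5. *EjZML5* also passed without CK replicate 2 (exact permutation p = 0.0464). *EjZML2* passed without MTST replicate 1, MTST replicate 3 or CK replicate 1 (exact permutation p = 0.0429, 0.0179 and 0.05).

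**Figure D3:**
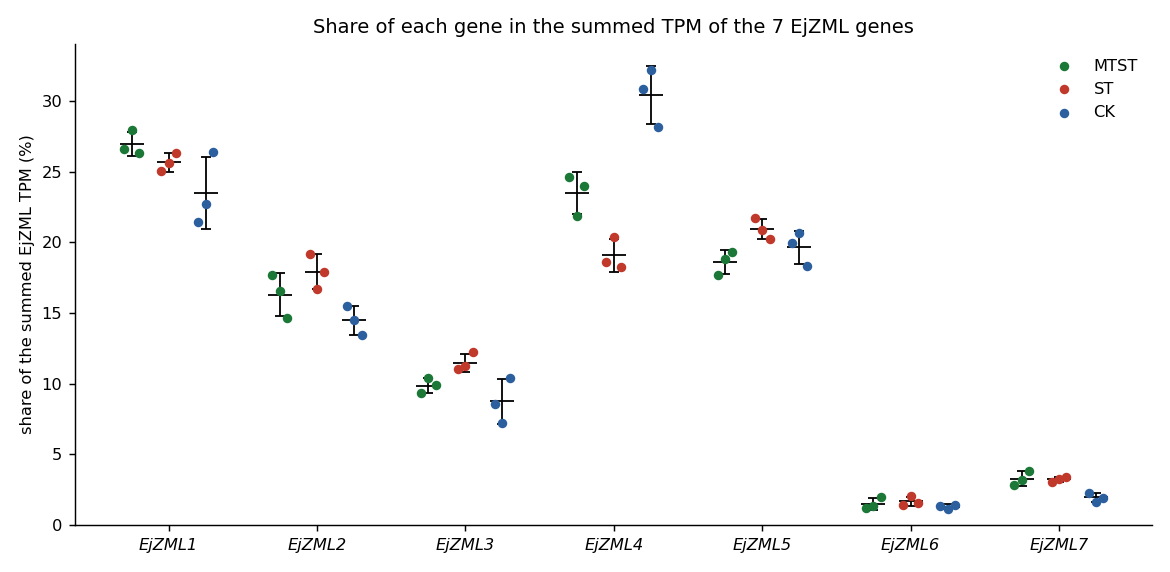
Share of each *EjZML* gene in the summed TPM of the 7 genes (percent, vertical axis) in the libraries of MTST, ST and CK (points), with the mean and SD (bars, n = 3). *EjZML4* took 21.9 to 24.6% in MTST, 18.3 to 20.4% in ST and 28.2 to 32.2% in CK, and *EjZML1* led in the salt-treated groups.

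Whether duplicated members responded alike was tested in 3 pairs, as the difference in log2(TPM + 1) between the genes of a pair within each library. *EjZML4* minus *EjZML5* was 0.47, 0.21 and 0.31 in MTST, -0.22, -0.031 and -0.15 in ST and 0.62, 0.63 and 0.61 in CK. *EjZML4* was thus the more abundant of these paralogs in all MTST and CK libraries and the less abundant in all ST libraries, and the 3 groups did not overlap. Their changes differed by -0.75 in ST against CK (SE 0.13, 95% interval -1.02 to -0.48, adjusted p = 0.000561 by limma over all tested genes), a call kept in each fit that left out 1 library. As background, 34.8% of tested genes changed unlike *EjZML5* in this comparison. In MTST against ST they differed by 0.46 (SE 0.13, 95% interval 0.19 to 0.73, adjusted p = 0.0242), where 17.3% of genes changed unlike *EjZML5*. That call was lost without MTST replicate 1, MTST replicate 3, ST replicate 1 or ST replicate 3 (adjusted p = 0.0732, 0.0518, 0.0699 and 0.0892). In MTST against CK the difference of -0.29 (95% interval -0.56 to -0.016) did not pass (adjusted p = 0.12, against 22.7% of genes called unlike *EjZML5*). The exact permutation test of the difference over the 3 groups gave p = 0.00357, the smallest possible.

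*EjZML1* minus *EjZML2* was 0.58, 0.74 and 0.83 in MTST, 0.38, 0.61 and 0.54 in ST and 0.45, 0.63 and 0.95 in CK. *EjZML1* was the more abundant in all 9 libraries, by 1.31 to 1.96 times in TPM, and the groups overlapped. The difference between their changes did not pass the test in ST against CK (-0.17, 95% interval -0.49 to 0.16), in MTST against ST (0.21, 95% interval -0.12 to 0.53) or in MTST against CK (0.038, 95% interval -0.29 to 0.36). The share of all tested genes that changed unlike *EjZML2* was 36.4%, 18.6% and 28.2% in these 3 comparisons. The intervals allow a difference of up to 0.53 on the log2 scale, so a like response was not shown.

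*EjZML3* minus *EjZML5* was -0.89, -0.83 and -0.94 in MTST, -0.95, -0.87 and -0.71 in ST and -1.17, -1.45 and -0.79 in CK. *EjZML5* was the more abundant in all 9 libraries, and CK replicate 3 stood apart from the other CK libraries. The changes differed by 0.29 in ST against CK (95% interval -0.071 to 0.66), by -0.044 in MTST against ST (95% interval -0.41 to 0.32) and by 0.25 in MTST against CK (95% interval -0.11 to 0.61), none past the test. Without CK replicate 3 the difference was 0.47 in ST against CK (adjusted p = 0.0210) and 0.42 in MTST against CK (adjusted p = 0.0429), so both calls were made only without that library. Of the 3 pairs, none passed in MTST against CK by limma with all libraries, 1 had an unadjusted p under 0.05, and limma-voom called none. How reads that fit more than 1 copy were counted is not given in the sources used here, so part of the reads of close copies may have been split between them.

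**Figure D4:**
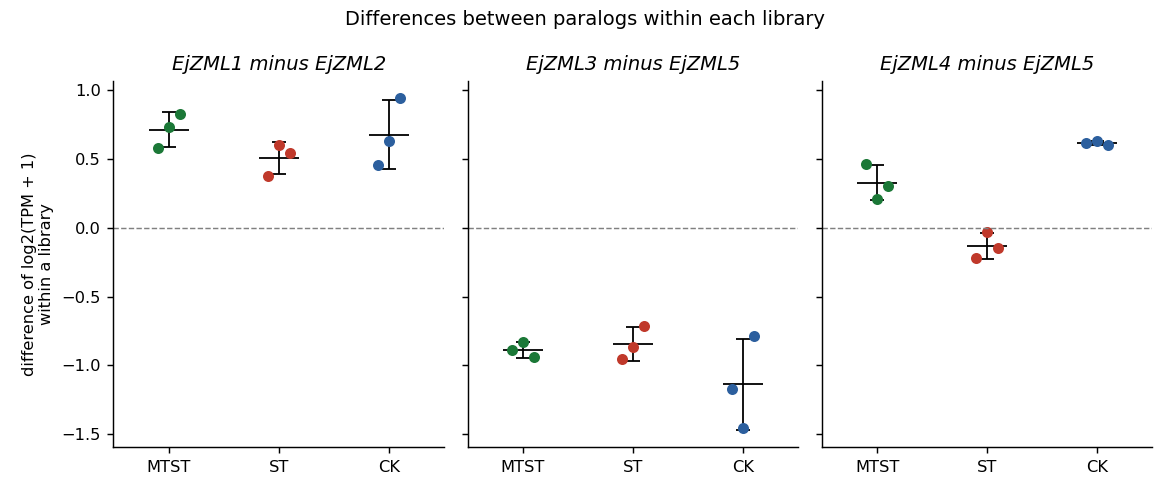
Difference of log2(TPM + 1) between the genes of 3 pairs within each library of MTST, ST and CK (points), with the mean and SD (bars, n = 3) and a dashed line at equal levels. *EjZML4* minus *EjZML5* lies at 0.21 to 0.47 in MTST, -0.22 to -0.031 in ST and 0.61 to 0.63 in CK, while the groups overlap for *EjZML1* minus *EjZML2*.

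The likeness of the profiles was described by Pearson's r of log2(TPM + 1) over the 9 libraries, which share the 3 treatments and the library scaling, so r is given without a test. Among the other TIFY genes, *EjZML7* was the most like *EjZML1* (r = 0.918), *EjZML3* (r = 0.881) and *EjZML6* (r = 0.819), and *EjZML1* was the most like *EjZML7*. Many genes outside the family had a higher r. Among all tested genes, *EjZML7* ranked 877 for *EjZML1*, 2694 for *EjZML3* and 325 for *EjZML6*, and *EjZML1* ranked 378 for *EjZML7*. *EjZML2* was closest to *EjJAZ16* (r = 0.909) and *EjZML5* to *EjJAZ1* (r = 0.860), both members of the jasmonate-repressor subfamily. *EjZML4* was closest to *EjTIFY2* (r = 0.721) and had a negative r with each of the other 6 *EjZML* genes, between -0.26 and -0.82. Pair partners were not the most similar genes among 23640 tested. *EjZML1* and *EjZML2* had r = 0.742, which ranked *EjZML2* 6158 by its likeness to *EjZML1* and *EjZML1* 6733 by its likeness to *EjZML2*. *EjZML3* and *EjZML5* had r = 0.628, with rank 11280 for *EjZML5* by its likeness to *EjZML3* and rank 6928 the other way. *EjZML4* and *EjZML5* had r = -0.262, with rank 8287 for *EjZML5* by its likeness to *EjZML4* and rank 20354 the other way.

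The 3 TIFY genes outside the JAZ and ZML subfamilies did not all move in the same direction. *EjTIFY2*, whose protein has a TIFY domain alone, had 17.0 to 18.7 TPM in MTST, 14.3 to 18.6 TPM in ST and 19.6 to 20.7 TPM in CK. Every CK library was above every ST and MTST library. In ST against CK it fell by 0.29 (SE 0.11, adjusted p = 0.0365), and median-of-ratios scaling gave a fall of 0.71 (adjusted p = 0.000202). With TPM it did not pass in the comparisons of MTST, whereas with median-of-ratios scaling it rose by 0.36 against ST (adjusted p = 0.0180) and fell by 0.35 against CK (adjusted p = 0.0174). *EjPPD1*, related to the PEAPOD proteins that limit leaf cell division in *Arabidopsis*, had -0.36 in ST against CK (adjusted p = 0.0966), and median-of-ratios scaling gave a fall of 0.74 (adjusted p = 0.00474). *EjZML4*, *EjTIFY2* and *EjPPD1* had negative values in ST against CK and in MTST against CK and positive values in MTST against ST, under both scalings. The same signs were found for *EjJAZ2*, with -0.88 in ST against CK with TPM and -1.12 with median-of-ratios scaling. How many of all tested genes had these signs was not counted, and the 3 comparisons share libraries. *EjTIFY1* rose by 0.46 in ST against CK (SE 0.17, adjusted p = 0.0350), a call lost with median-of-ratios scaling (0.12, adjusted p = 0.580). *EjPPD1* and *EjTIFY1* passed in neither MTST comparison under either scaling.

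The *EjJAZ* genes, 15 of which were tested, depended on the scaling in ST against CK. With TPM, 6 rose and 1 fell, beside 52.8% of all tested genes higher and 10.6% lower, whereas with median-of-ratios scaling 2 rose and 7 fell, beside 22.8% and 23.4%. In MTST against ST none rose under either scaling, beside 7.90% of all tested genes higher with TPM and 15.1% with median-of-ratios scaling. There 7 fell with TPM and 5 with median-of-ratios scaling, beside 29.8% and 13.6% of all tested genes lower. In MTST against CK 1 rose and 4 fell with TPM, beside 29.7% of all tested genes higher and 10.9% lower. Under median-of-ratios scaling 1 rose and 6 fell, beside 17.1% higher and 18.7% lower.

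Genes annotated to processes in which ZML proteins of other species take part were counted for context under both scalings. For the response to blue light, the more frequent direction turned with the scaling in each comparison, as it did over all tested genes. For the response to high light intensity it did not turn. Lignin genes rose more often than they fell in ST and in MTST against CK under both scalings. Their excess of falls in MTST against ST was seen with TPM alone, where 29.8% of all tested genes were lower and 7.90% higher. It was thus no trait of the lignin list. Of 115 tested genes annotated to the response to blue light, 52 rose and 16 fell in ST against CK with TPM (median 0.29 beside 0.41 for all genes, of which 52.8% were called higher and 10.6% lower). With median-of-ratios scaling 31 rose and 40 fell (median -0.079 beside 0.014, with 22.8% of all genes higher and 23.4% lower). Of 92 genes annotated to the response to high light intensity, 28 rose and 33 fell with TPM (median 0.079), and 10 rose and 45 fell with median-of-ratios scaling (median -0.27). Of 34 genes annotated to lignin synthesis, 23 rose and 3 fell with TPM (median 0.88), and 15 rose and 3 fell with median-of-ratios scaling (median 0.51).

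In MTST against ST, 7.90% of all genes were higher and 29.8% lower with TPM, against 15.1% and 13.6% with median-of-ratios scaling. The blue-light list had 12 genes up and 28 down with TPM (median -0.14 beside -0.22 for all genes), and 29 up and 16 down with median-of-ratios scaling (median 0.059 beside -0.0019). The high-light list had 21 up and 18 down with TPM (median -0.018), and 37 up and 7 down with median-of-ratios scaling (median 0.20). The lignin list had 3 up and 11 down with TPM (median -0.016), and 7 up and 7 down with median-of-ratios scaling (median 0.22).

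In MTST against CK, 29.7% of all genes were higher and 10.9% lower with TPM, against 17.1% and 18.7% with median-of-ratios scaling. The blue-light list had 40 genes up and 12 down with TPM (median 0.16 beside 0.19 for all genes), and 23 up and 25 down with median-of-ratios scaling (median -0.045 beside 0.0086). The high-light list had 20 up and 27 down with TPM (median 0.038), and 16 up and 32 down with median-of-ratios scaling (median -0.17). The lignin list had 15 up and 2 down with TPM (median 0.55), and 12 up and 3 down with median-of-ratios scaling (median 0.40). None of these 3 lists holds an *EjZML* gene.

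Jasmonic acid signaling was annotated to 94 tested genes, a list that includes TIFY genes but no *EjZML* gene. In ST against CK 57 rose and 10 fell with TPM (median 0.52), and 28 rose and 22 fell with median-of-ratios scaling (median 0.11). In MTST against ST 5 rose and 41 fell with TPM (median -0.32), and 11 rose and 21 fell with median-of-ratios scaling (median -0.098). In MTST against CK 23 rose and 9 fell with TPM (median 0.20), and 19 rose and 20 fell with median-of-ratios scaling (median -0.0015). The shares called over all genes are those given for the light lists in the same comparisons.

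Outside the TIFY family, 7 tested genes carried both the zinc-ion and the sequence-specific DNA binding terms, as the *EjZML* genes do. In ST against CK 2 rose and none fell with TPM (median 0.23), beside 52.8% of all tested genes higher and 10.6% lower (median 0.41). Under median-of-ratios scaling none rose and 2 fell (median -0.19), beside 22.8% higher and 23.4% lower (median 0.014). In MTST against ST none rose and 3 fell with TPM (median -0.36), beside 7.90% of all genes higher and 29.8% lower (median -0.22). Under median-of-ratios scaling 2 rose and 1 fell (median -0.16), beside 15.1% higher and 13.6% lower (median -0.0019). In MTST against CK none was called with TPM (median -0.12), beside 29.7% of all genes higher and 10.9% lower (median 0.19). Under median-of-ratios scaling none rose and 2 fell (median -0.32), beside 17.1% higher and 18.7% lower (median 0.0086). For the 7 *EjZML* genes the medians in these comparisons were 0.47, -0.17 and 0.36 with TPM, and 0.092, 0.066 and 0.16 with median-of-ratios scaling.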

How the data were processed

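Leaf RNA of 9 libraries (3 each of MTST, ST and CK) was analysed from 1 deposited table of FPKM values. The authors trimmed the reads, aligned them with HISAT2 to the loquat genome, counted them per gene with featureCounts of Rsubread and turned them into the deposited FPKM; how reads with several matches were treated, and tool versions, were not given in the sources used here. Columns with group means and with the authors' own comparisons (fold changes, p-values) were not used. FPKM was rescaled to TPM. Genes that reached 1 TPM in 3 or more libraries (23641 of 43996) entered limma 3.58.1 (R 4.3.3) on log2(TPM + 1), with a mean-variance trend, all 9 libraries in 1 fit, and Benjamini-Hochberg adjustment; fold changes on this scale understate those of low genes. Pairs were tested on within-library differences, each gene against the second of the pair. Shares were tested by exact permutation of the libraries among the groups, since 3 against 3 cannot go below p = 0.10. These p-values were not adjusted for the number of members.

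Whole reads were recovered for all 31458 genes above 0 from the steps of the values (within 1e-05 reads), and served for depths and limma-voom. Replicates differed by more than sampling noise (mean chi-square per gene of 3.20 to 28.7). The study describes biological replicates for CK and the salt treatment, and for MTST the labels say only that the libraries are replicates; p-values measure the spread between them. The numbers did not pair the libraries (correlations of same-numbered deviations of -0.15 to 0.083). The labels give no sequencing batch. Alternatives were the pseudocount (0.1), no filter, median-of-ratios scaling, FPKM, limma-voom, the 2 groups compared alone, a replicate block, and each library left out. The genes named were the 7 *EjZML* genes, the 3 TIFY genes outside JAZ and ZML, and the most similar TIFY gene of each member. *EjJAZ2* was named as well, after its values were seen. The members and lists were chosen with earlier results of these data known.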

Additional observations from a re-analysis of the deposited data

How the results depend on the processing

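With median-of-ratios scaling, 2 genes were called in ST against CK in place of 6, 2 in MTST against ST in place of 0, and 2 in MTST against CK in place of 4. FPKM as deposited and limma-voom each called 1 gene in MTST against ST. Of 23641 tested genes, they called 2325 and 2278 higher and 5418 and 5632 lower. Leaving out 1 library gave 5 to 7 genes in ST against CK, 0 to 1 in MTST against ST and 2 to 4 in MTST against CK. Of 23641 tested genes, the same fits called 11102 to 12342 higher and 2113 to 2561 lower in ST against CK. The ranges were 1324 to 2035 and 5072 to 7366 in MTST against ST, and 5418 to 7614 and 1865 to 2811 in MTST against CK. Of the pairs, 1 to 2, 0 to 1 and 0 to 1 were called in these comparisons, and 2 to 5 members had a differing share. Tested as a share of all TPM, which is the TPM level itself and depends on the scaling, 5 members differed in place of 3. How many of all genes did so was not counted.

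With a replicate block, which the numbers do not warrant, 5 genes were called in ST against CK, and no pair in MTST against ST (*EjZML4* and *EjZML5*, 0.46, adjusted p = 0.0738). Of 23641 tested genes, 12233 were then called higher and 2476 lower in ST against CK. The block also left 2 members with a differing share, *EjZML2* and *EjZML4*, at p = 0.0278, the smallest that permutation within replicate numbers can give.

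Signs turned with median-of-ratios scaling for *EjZML1* (-0.080) and *EjZML5* (-0.12) in ST against CK, for *EjZML2* (0.066), *EjZML5* (0.035), *EjZML6* (0.018) and *EjZML7* (0.19) in MTST against ST, and for *EjZML5* (-0.083) in MTST against CK. *EjZML7* in MTST against ST turned to 0.058 with FPKM, to 0.066 with limma-voom, and reached -0.17 to 0.11 when 1 library was left out, while *EjZML1* had -0.0053 to 0.082. The *EjZML3* and *EjZML5* difference in MTST against ST ranged from -0.098 to 0.023 when 1 library was left out, positive without ST replicate 3, and that of *EjZML1* and *EjZML2* in MTST against CK from -0.073 to 0.17, negative without MTST replicate 3 or CK replicate 1. In the summed *EjZML* TPM, median-of-ratios scaling, an alternative chosen after seeing the data, turned the difference between means to -33.1 for ST minus CK, 31.7 for MTST minus ST and -1.41 for MTST minus CK. Leaving that sum aside, of 564 single values under the alternatives tried, 496 kept their direction and side of the threshold. Shares, which have no direction, were judged by the side alone. Many values could hardly move, since pair differences barely depend on the scaling. Leaving out a library outside a comparison also leaves its estimate unchanged. Under median-of-ratios scaling, 15 gene and pair values were kept, 7 turned in sign, 5 lost a call and 3 gained one. *EjZML6*, at 35 to 81 reads per library, was the member most limited by depth. Why these values moved was not tested.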
